A study of Mus musculus with 4 samples.

Results

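Axonemal dyneins are the motors that make motile cilia beat. Outer dynein arms set beat frequency, whereas inner dynein arms shape the bend of the cilium, and each inner arm is built around a heavy chain that carries the motor domain. In the lung these genes are known chiefly from the multiciliated cells that line the airways and move mucus. Dnah2 and Dnah10 encode the heavy chains of the double-headed inner arm. Dnah1, Dnah3, Dnah6, Dnah12 and the 3 mouse copies of Dnah7 (Dnah7a, Dnah7b and Dnah7c) encode heavy chains of single-headed inner arms, and Dnali1 encodes an inner arm light chain. These 9 heavy-chain genes and Dnali1 were taken by name from the deposited expression table, which lists 21931 genes, and all 10 were found and passed the filter on low counts.

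RNA sequencing had been performed on lung tissue of C57BL6 mice aged 2 months, given no additional treatment, to look for genes that change on loss of Dnah9, an outer arm heavy chain. There was 1 wild-type library, 1 library with the genotype label Hez, which is kept as written because the labels do not spell it out, and 2 libraries labelled Dnah9 knockout. No source used here states which part of Dnah9 was deleted or whether the animals were littermates. Library totals were 15860478 to 16553480 reads, and 16445 to 16571 genes had at least 1 read. Dnah9 itself stood at 56.6 CPM (reads scaled to library size) in wild type, 25.4 in Hez, and 14.8 and 15.98 in knockout libraries 1 and 2. Markers of alveolar type 1, alveolar type 2, endothelial, club and multiciliated cells all had reads in every library.

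The deposited table places the genes on GRCm39. Dnah1 lies on chromosome 14 from 30982332 to 31045853 and Dnah12 on chromosome 14 from 26414429 to 26613660. Dnah7b (46105475 to 46412710) and Dnah7c (46464752 to 46846636) are neighbours on the plus strand of chromosome 1, and Dnah7a (53436165 to 53745943) lies on the minus strand of the same chromosome. Dnah2 lies on chromosome 11 from 69311635 to 69439936, Dnah3 on chromosome 7 from 119521894 to 119694503, and Dnah6 on chromosome 6 from 72994589 to 73198634. Dnah10 lies on chromosome 5 from 124802149 to 124911372 and Dnali1 on chromosome 4 from 124949131 to 124959496. Lyrm1 overlaps Dnah3 on the opposite strand by 34293 bases, with 62 to 81 reads per library, and Gnl2 overlaps Dnali1 by 43 bases. No source used here states whether reads were counted by strand, so reads of overlapping genes cannot be told apart with certainty.

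The Dnah7 copies are shown first because their likeness bears on how their reads can be told apart. The stretches below are from the longest protein-coding transcript of each copy in GENCODE M21 (GRCm38 annotation) and hold 5 positions in 120 at which the copies are not all the same, close to the mean of 5.29 per 120 coding bases. Capitals mark those positions. They span bases 665 to 784 of the Dnah7a transcript, 728 to 847 of Dnah7b and 617 to 736 of Dnah7c.
Dnah7a: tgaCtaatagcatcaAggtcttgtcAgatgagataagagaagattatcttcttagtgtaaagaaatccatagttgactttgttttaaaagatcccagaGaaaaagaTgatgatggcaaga
Dnah7b: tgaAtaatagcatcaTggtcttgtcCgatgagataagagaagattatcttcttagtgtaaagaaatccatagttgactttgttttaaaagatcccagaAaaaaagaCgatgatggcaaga
Dnah7c: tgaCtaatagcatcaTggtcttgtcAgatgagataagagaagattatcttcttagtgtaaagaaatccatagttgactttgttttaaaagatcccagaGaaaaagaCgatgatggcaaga

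Over their whole aligned length the transcripts were 96.9% identical between Dnah7a and Dnah7b, 96.9% between Dnah7a and Dnah7c, and 97.3% between Dnah7b and Dnah7c. Of all stretches of 100 bases in the Dnah7a, Dnah7b and Dnah7c transcripts, 19.96%, 23.5% and 24.9% occurred unchanged in another copy. With stretches of 50 bases the shares were 40.3%, 48.4% and 48.5%. None of the other 7 members shared a stretch of 50 bases with another member (0 windows each). No source used here states the read length or how reads that match several places were handled, so the split of reads among Dnah7a, Dnah7b and Dnah7c is uncertain, and their sum is given beside the single values.

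Promoter windows of these genes are given as a description, and whether they bear on the levels was not tested. RefSeq promoter sequences (GRCm38.p6, 250 bases before to 50 after the annotated start) were matched by symbol for 9 of the 10 genes; Dnah3 was not matched. The X-box, the site bound by RFX factors that drive ciliary genes, is built of a pair of inverted half-sites. The letters GTTGCNNNGCAAC, which read the same on both strands and were chosen after the sequences had been seen, occurred in 4 of these 9 promoters, those of Dnah6, Dnah7a, Dnah7b and Dnah7c. They occurred in 74 of all 32851 promoter windows of the same length (0.225%). The windows below run from 60 bases before the match to 11 bases after it, with the match in capitals. They are chr1:53706818-53706901 on the minus strand for Dnah7a, chr1:46066769-46066852 on the plus strand for Dnah7b, chr1:46425389-46425472 on the plus strand for Dnah7c and chr6:73221644-73221727 on the minus strand for Dnah6.
Dnah7a: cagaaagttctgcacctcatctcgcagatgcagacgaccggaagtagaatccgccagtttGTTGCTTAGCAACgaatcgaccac
Dnah7b: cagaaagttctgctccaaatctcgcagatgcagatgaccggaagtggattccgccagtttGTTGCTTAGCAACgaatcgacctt
Dnah7c: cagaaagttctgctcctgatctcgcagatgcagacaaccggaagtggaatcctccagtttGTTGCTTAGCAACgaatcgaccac
Dnah6: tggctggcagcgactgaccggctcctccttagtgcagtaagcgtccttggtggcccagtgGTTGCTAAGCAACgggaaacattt

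The match began 57 bases before the annotated start in Dnah7a, 24 in Dnah7b, 69 in Dnah7c and 36 in Dnah6, counted as positions -57, -24, -69 and -36. The Dnah7 windows shared 76 to 79 of 84 bases with each other and 24 to 26 with the Dnah6 window, so the matches in the 3 copies are not independent of each other. The half-site alone, GTTGC on either strand and contained in the paired letters, occurred in 8 of the 9 promoters (all but Dnali1) and in 35.2% of all windows. Dnah10 carried it at positions -20, -5 and 11, in an arrangement without the inverted partner, as its last 100 bases before the start show (chr5:124724985-124725084, plus strand, half-sites in capitals).
Dnah10: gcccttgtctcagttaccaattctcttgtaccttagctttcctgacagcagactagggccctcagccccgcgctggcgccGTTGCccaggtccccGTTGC

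The forkhead letters TGTTTAC, on either strand, occurred in 0 of the 9 promoters and in 3.65% of all windows. These are matches of letters in 1 window per gene and describe no binding.

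Levels per transcript length, in FPKM (reads scaled to library size and gene length), put Dnali1 and Dnah6 first and second in all 4 libraries. Dnali1 stood highest, at 17.2 FPKM in wild type, 11.6 in Hez, and 12.7 and 13.1 in knockout 1 and 2. Dnah6 was the most abundant of the 9 inner arm heavy chains, at 11.2, 7.87, 7.37 and 6.93 FPKM in the same order. With the deposited lengths, neither range overlapped that of the next gene. Dnah12 (3.71 to 5.52 FPKM), Dnah3 (3.15 to 5.07) and Dnah10 (2.87 to 4.13) followed with overlapping ranges, then Dnah1 (1.29 to 2.01) and Dnah2 (1.19 to 1.90), which overlapped each other but not Dnah10. The Dnah7 copies were lowest, at 0.644 to 1.15 FPKM for Dnah7c, 0.584 to 0.726 for Dnah7b and 0.579 to 0.802 for Dnah7a. With the deposited lengths they did not separate from each other. The deposited length of Dnah7b, 19984 bases, is 1.62 times its longest coding transcript. With the length of that transcript its mean level was 1.07 in place of 0.657, which placed it above Dnah7c (0.858). Its range was then 0.947 to 1.18 and did not overlap that of Dnah7a with its own coding transcript, 0.603 to 0.837. The same alternative also placed Dnah3 (4.37) above Dnah12 (4.23) and Dnah2 (1.64) above Dnah1 (1.55). With it the range of Dnah6 over the libraries, 7.25 to 11.7, overlapped that of Dnali1, 11.6 to 17.2. Dnali1 still stood above Dnah6 within each library.

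**Figure D1:**
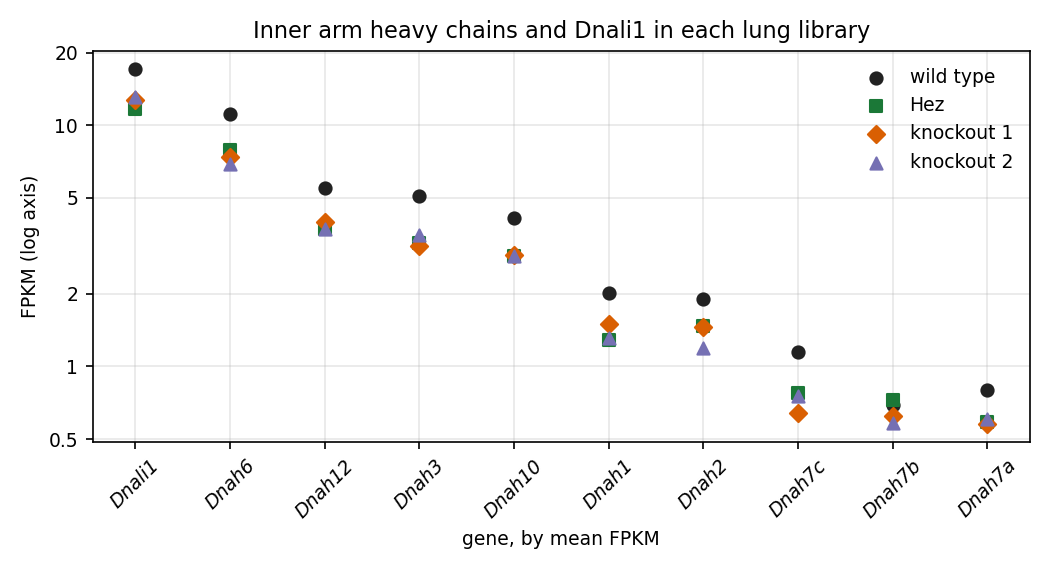
FPKM of each gene (log axis) in the wild-type, Hez and 2 knockout libraries, 1 point per library, ordered by mean. Dnali1 and Dnah6 stand above the rest in every library, and the wild-type point is the highest of its gene for every gene but Dnah7b.

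The comparison of knockout with wild type, which the series names, placed all 10 genes lower in both knockout libraries than in the wild-type library. Of all 15055 genes tested, 33.4% had both knockout libraries below wild type, and 48.9% had a negative log2 fold, as did all 10 members. The median log2 fold of the 10 genes was -0.51, beside 0.00449 for all genes. After adjustment over all genes, 0 of 10 passed in the edgeR quasi-likelihood test (background 0.0531%, 8 genes, or 0.0399% on the lower side), and 8 of 10 had an unadjusted p below 0.05 on the lower side (background 3.37%). None passed with limma-voom (0 of 10) or with DESeq2 (0 of the 8 with an adjusted p; DESeq2 gave none for Dnah7a and Dnah7c). The Hez library also lay below wild type, for 9 of 10 genes (background 50.4%). The comparison with wild type rests on that 1 library.

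Among the single-headed heavy chains, Dnah6 stood at 147 CPM in wild type, 104 in Hez, and 98.3 and 91.5 in knockout 1 and 2. Both knockout libraries lay below both other libraries. The log2 fold against wild type was -0.63 (SE 0.101, n = 2 against 1, edgeR adjusted p = 0.208), the largest in size after that of Dnah7c. Dnah3 stood at 72.1, 46.6, 45.4 and 50.2 CPM in the same order. Hez fell between the knockout libraries, and the log2 fold against wild type was -0.59 (SE 0.114, edgeR adjusted p = 0.323).

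Dnah12 stood at 65.8 CPM in wild type, 44.8 in Hez, and 48.2 and 44.4 in the knockout libraries. Hez again lay between the knockout libraries, and the log2 fold against wild type was -0.51 (SE 0.113, edgeR adjusted p = 0.402). Dnah1, whose human counterpart is known for its role in sperm tails, stood at 26.1, 16.9, 19.7 and 17.0 CPM. Here Hez was the lowest of the 4 libraries, and the log2 fold against wild type was -0.51 (SE 0.176, edgeR adjusted p = 0.812).

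The Dnah7 copies had fewer reads than the other heavy chains and wider errors. Dnah7a stood at 10.2 CPM in wild type, 7.50 in Hez, and 7.44 and 7.74 in the knockout libraries (log2 fold against wild type -0.42, SE 0.250, edgeR adjusted p = 0.996). Dnah7c stood at 14.4, 9.80, 8.18 and 9.50 CPM (log2 fold -0.70, SE 0.230, edgeR adjusted p = 0.754). Both followed the other heavy chains, with wild type above the remaining libraries. Dnah7b stood at 13.8, 14.5, 12.6 and 11.6 CPM and was the single member with Hez above wild type. Its 95% exact Poisson intervals of 12.01 to 15.7 CPM in wild type and 12.7 to 16.5 in Hez overlapped, and its log2 fold against wild type was -0.18 (SE 0.205, edgeR adjusted p = 0.996). These intervals cover counting error only. The reads of the 3 copies summed to 621 in wild type, 526 in Hez, and 459 in each knockout library. Tested as 1 feature, the sum had a log2 fold of -0.42 (SE 0.137, edgeR adjusted p = 0.73). Whether Dnah7b differs from its copies in its response was not tested, and its reads cannot be separated from theirs with certainty.

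The heavy chains of the double-headed arm lay lower as well. Dnah10 stood at 66.0 CPM in wild type, 46.4 in Hez, and 47.0 and 46.1 in the knockout libraries. Hez lay between the knockout libraries, and the log2 fold against wild type was -0.50 (SE 0.107, edgeR adjusted p = 0.399). Dnah2 stood at 28.2, 22.1, 21.9 and 17.7 CPM, with knockout 2 the lowest (log2 fold -0.51, SE 0.182, edgeR adjusted p = 0.827). Per length, Dnah10 was 2.18 times as abundant as its partner Dnah2 in wild type, 1.955 times in Hez, and 1.99 and 2.42 times in the knockout libraries, so the wild-type ratio lay within the range of the knockout libraries.

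Dnali1, the light chain, stood at 36.4 CPM in wild type, 24.9 in Hez, and 27.3 and 27.9 in the knockout libraries. Hez was the lowest, and the log2 fold against wild type was -0.40 (SE 0.142, edgeR adjusted p = 0.821).

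**Figure D2:**
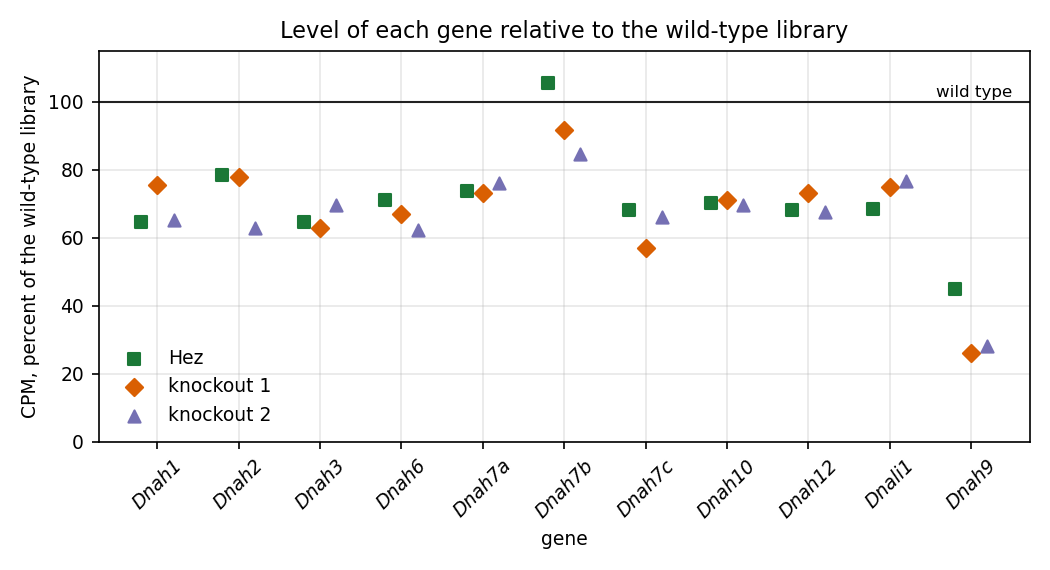
CPM of each inner arm gene, with Dnah9 at the right, in the Hez and 2 knockout libraries as a percentage of the wild-type library (line at 100), 1 point per library. Apart from Dnah7b, the inner arm points lie between 56.9% and 78.3%, the Dnah7b points between 84.6% and 105.5%, and Dnah9 at 44.9% in Hez and 26.1% and 28.2% in the knockout libraries.

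The Hez library was set beside the knockout libraries for Dnah9 and for the inner arm genes. The Dnah9 level was 44.9% of wild type in Hez and 26.1% and 28.2% in the knockout libraries (log2 fold of knockout against wild type -1.88, SE 0.145, edgeR adjusted p = 0.00864; against Hez -0.73, SE 0.152, edgeR adjusted p = 0.599). With limma on log2 FPKM, Dnah9 did not pass against wild type, with adjusted p of 0.669 and 0.733 at pseudocounts of 0.5 and 0.1, and 0.820 at 0.5 with no filter on low values. Summed over the 10 inner arm genes, the level was 70.4% of wild type in Hez, 70.0% in knockout 1 and 67.4% in knockout 2. Hez and wild type, with 1 library each, were not tested against each other. As a description, 9 of 10 genes stood at 80% of wild type or less in Hez, taken from log2 CPM (background 13.9%), with a median log2 difference of -0.53, from -0.63 for Dnah3 and Dnah1 to 0.08 for Dnah7b. The counting interval of that difference included 0 for Dnah7b (-0.19 to 0.34) and lay below 0 for the other 9 genes. For 4 of 10 genes, Dnah3, Dnah7a, Dnah10 and Dnah12, Hez lay between the knockout libraries (background 33.9%).

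Against the Hez library the knockout libraries showed no common direction in these genes. Of 10 genes 4 had negative log2 folds (background 47.5%), the same 4 had both knockout libraries below Hez (background 31.9%), and the median was 0.01, beside 0.00989 for all genes. None passed (0 of 10, edgeR; background 0.00664%, 1 gene), with 0 at an unadjusted p below 0.05 (background 2.11% on the lower side), and 0 with DESeq2 or limma-voom. Log2 folds ran from -0.26 for Dnah7b (SE 0.203) to 0.15 for Dnali1 (SE 0.147). The 95% interval of the fold was -0.38 to 0.10 for Dnah6, -0.25 to 0.26 for Dnah10, -0.23 to 0.31 for Dnah3 and -0.22 to 0.31 for Dnah12. It was widest for Dnah7a, at -0.58 to 0.61. Both comparisons share the knockout libraries.

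**Figure D3:**
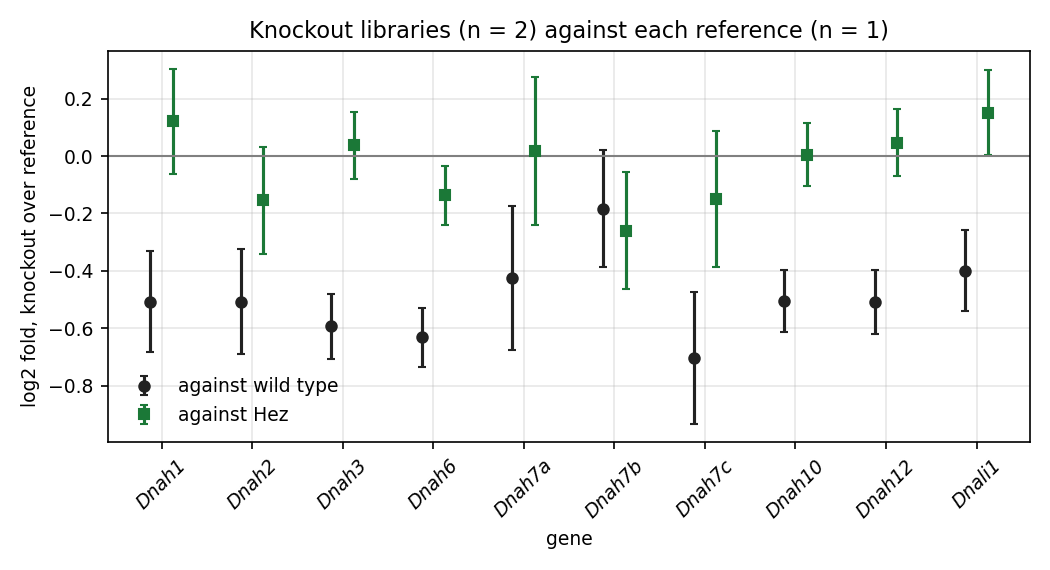
Log2 fold of the 2 knockout libraries over the wild-type library and over the Hez library for each gene, with bars of 1 standard error from edgeR. Folds against wild type lie between -0.70 and -0.18, whereas folds against Hez lie on both sides of 0.

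With wild type and Hez joined as 1 reference group of 2 libraries, all 10 log2 folds were negative (background 50.9%), with a median of -0.27. None passed (0 of 10, edgeR; background 0.0136%, 2 genes; 0 with DESeq2 or limma-voom). Dnah6 was the single gene with an unadjusted p below 0.05 (background 2.75% on the lower side), at -0.41 (SE 0.147, edgeR adjusted p = 0.94). Both knockout libraries lay below both reference libraries for 4 of 10 genes, Dnah2, Dnah6, Dnah7b and Dnah7c (background 16.3%). Since all 10 lay below wild type, these are the same 4 genes that lay below Hez (background 31.9%). Without the wild-type library the median was 0.01, and 6 of the 10 folds turned positive.

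Dnah6 took the largest share of inner arm heavy-chain reads in each of the 4 libraries. Dnah6 took 33.1% of the reads of the 9 heavy chains in wild type, 33.3% in Hez, and 31.8% and 30.9% in knockout 1 and 2. Dnah3 took 14.7% to 16.97%, Dnah10 14.8% to 15.6% and Dnah12 14.3% to 15.6%. Dnah1 took 5.39% to 6.37% and Dnah2 5.996% to 7.11%. The Dnah7 copies together took 8.64% in wild type, 10.2% in Hez, and 9.14% and 9.76% in the knockout libraries. Dnah7b moved most in relative terms, from 3.10% in wild type to 4.64% in Hez.

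**Figure D4:**
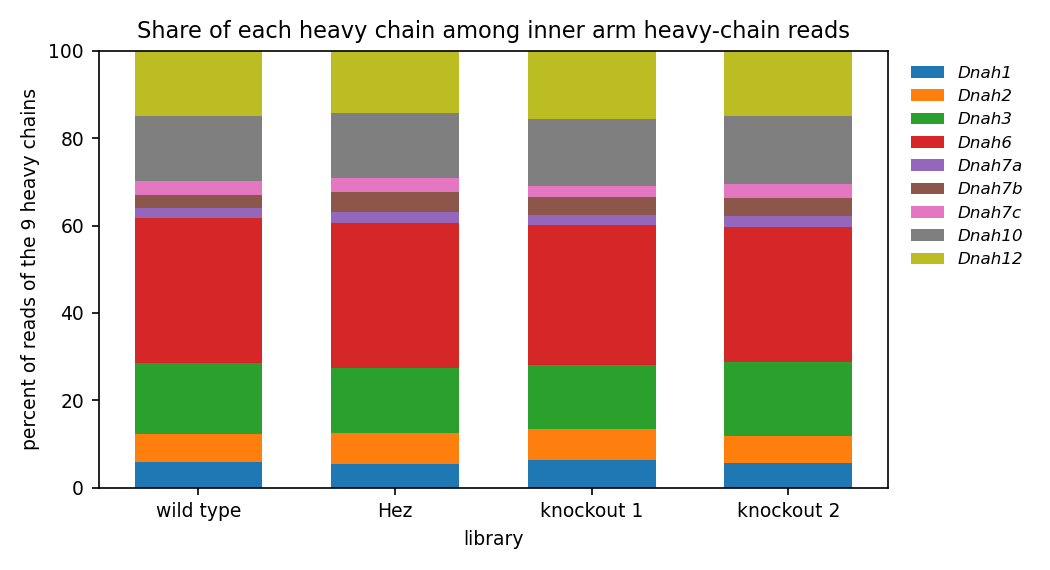
Share of each heavy-chain gene among all reads of the 9 heavy chains, in percent, stacked for each library. The bars divide alike, with Dnah6 between 30.9% and 33.3% in every library.

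Other genes of the inner arm lay in the same range. The list of other inner arm subunits held 7 genes, 6 of which had both knockout libraries below wild type (background 33.4%), with a median log2 fold of -0.43. None passed in edgeR (0 of 7; background 0.0531%), and 3 had an unadjusted p below 0.05 on the lower side (background 3.37%). Dnai3, an intermediate chain of the double-headed arm, stood at 31.2 CPM in wild type, 20.8 in Hez, and 23.5 and 21.7 in the knockout libraries (log2 fold -0.46, SE 0.157). Casc1, another intermediate chain, also named Dnai7, stood at 23.8, 16.3, 17.0 and 16.5 CPM (log2 fold -0.51, SE 0.172). Dnah14, a further axonemal heavy chain, was low, at 0.802 CPM in wild type, 1.09 in Hez, and 0.983 and 0.944 in knockout. Log2 folds of this list ran from -0.75 for Zmynd12 (SE 0.339) to 0.26 for Dnah14 (SE 0.714), with Dynlt2b at -0.13 (SE 0.261). The list of proteins that tether inner arms or set their spacing along the microtubule held 7 genes. All had both knockout libraries below wild type (background 33.4%), with a median of -0.51. Their log2 folds ran from -0.80 for Cfap73 (SE 0.462) to -0.25 for Ccdc39 (SE 0.141). None passed (0 of 7, edgeR; background 0.0531%), and 5 had an unadjusted p below 0.05 on the lower side (background 3.37%). Cfap44 and Cfap43, which tether the double-headed arm, had log2 folds of -0.50 (SE 0.102) and -0.51 (SE 0.108).

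Heavy chains of other dyneins did not all share the pattern. Dnah5, the outer arm partner of Dnah9 and Dnah11, stood at 106 CPM in wild type, 69.1 in Hez, and 75.4 and 79.7 in the knockout libraries (log2 fold -0.45, SE 0.1, edgeR adjusted p = 0.402). Dnah11 had a log2 fold of -0.32 (SE 0.157). Dnah8 and Dnah17, outer arm chains known from sperm, were low, at 5.18 to 8.87 and 2.72 to 4.44 CPM, with log2 folds of 0.58 (SE 0.316) and -0.08 (SE 0.359). The cytoplasmic heavy chain Dync1h1, which drives cargo transport in all cells, had a log2 fold of -0.03 (SE 0.0927), and Dync2h1, the motor of retrograde transport inside cilia, -0.22 (SE 0.138). None of these 6 genes passed in edgeR (0 of 6; background 0.0531%), and without knockout 2 the fold of Dync1h1 was 0.03.

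Markers of the cells that carry these cilia lay lower in the same libraries as the inner arm genes. In bulk tissue, fewer cells of a type and less RNA per cell cannot be told apart. All 12 multiciliated cell markers had both knockout libraries (background 33.4%) and the Hez library (background 50.4%) below wild type, with a median log2 fold of -0.49. None was at 0 in any library, and none passed (0 of 12, edgeR; background 0.0531%). On the lower side, 10 had an unadjusted p below 0.05 (background 3.37%). Foxj1, the transcription factor of motile ciliogenesis, stood at -0.55 (SE 0.0974, edgeR adjusted p = 0.273) and Cdhr3, a cadherin of ciliated cells, at -0.60 (SE 0.102, edgeR adjusted p = 0.248). The summed level of the list was 2542 CPM in wild type, 2137 in Hez and 2122 to 2156 in knockout. Sec14l3 and Tppp3 held 79.5% of the reads of the list in wild type. With all 12 markers, reads of the 10 inner arm genes per marker read came to 0.189 in wild type, 0.158 in Hez, and 0.158 and 0.15 in knockout. By that ratio wild type lay above the rest. With the other 10 markers, an alternative added after seeing the data, the ratio was 0.919, 1.011, 0.96 and 0.879. By this second ratio wild type lay within the knockout range. Per read of Foxj1 alone, the ratio was 4.63, 4.94, 4.76 and 4.57.

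Markers of club cells and muscle lay lower too. All 7 club cell markers were below wild type in both knockout libraries (background 33.4%) and in Hez (background 50.4%). Their median log2 fold was -0.88. Scgb1a1 made up 16729 of the 20437 CPM of the list in wild type. The summed level of these markers was 76.96% of wild type in Hez and 69.7% to 83.5% in knockout. Of them, 3 fell in edgeR (background 0.0399% on the lower side), the secreted airway proteins Scgb3a2 (log2 fold -0.88, SE 0.0971, edgeR adjusted p = 0.0365), Scgb3a1 (log2 fold -1.06, SE 0.089, edgeR adjusted p = 0.00864) and Bpifa1 (-1.33, SE 0.129, edgeR adjusted p = 0.021); against Hez none passed (0 of 7). All 3 missed the threshold with limma on log2 FPKM (adjusted p 0.509 to 0.820), and Bpifa1 and Scgb3a2 missed it in edgeR without a filter (adjusted p 0.131 and 0.167) and with a mean of at least 10 CPM (0.160 and 0.176). The 5 smooth muscle markers summed to 59.3% of wild type in Hez and 69.2% to 78.5% in knockout, with Actg2 at -0.78 (SE 0.108) and Cnn1 at -0.83 (SE 0.131). The 5 cardiac muscle markers stood at 105% in Hez and 61.1% to 77.8% in knockout, with Nppa at 0 in 1 knockout library, Myl4 at -0.79 (SE 0.0982) and Tnnt2 at -0.70 (SE 0.102). Alveolar type 2 markers summed to 103% in Hez and 111% to 117% in knockout, with Sftpc at 0.18 (SE 0.0444) and Sftpa1 at 0.22 (SE 0.0635). Alveolar type 1 markers stood at 112% and 104% to 105%, with Aqp5 at 0.20 and Clic5 at 0.07. Of these 6 genes, 2 had a negative log2 fold (background 48.9%), Hopx at -0.13 and Rtkn2 at -0.01. Endothelial markers stood at 113% and 109.6% to 112%, with Cldn5 at 0.27 and Plvap at 0.21. No gene of the muscle, alveolar and endothelial lists passed (0 in each, edgeR; background 0.0531%). On the lower side, 5 smooth muscle and 5 cardiac genes had an unadjusted p below 0.05 (background 3.37%). On the higher side, 5 alveolar type 2, 0 alveolar type 1 and 3 endothelial genes did (background 273 of 15055 genes). The part of these shifts in the levels of the inner arm genes was not tested.

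**Figure D5:**
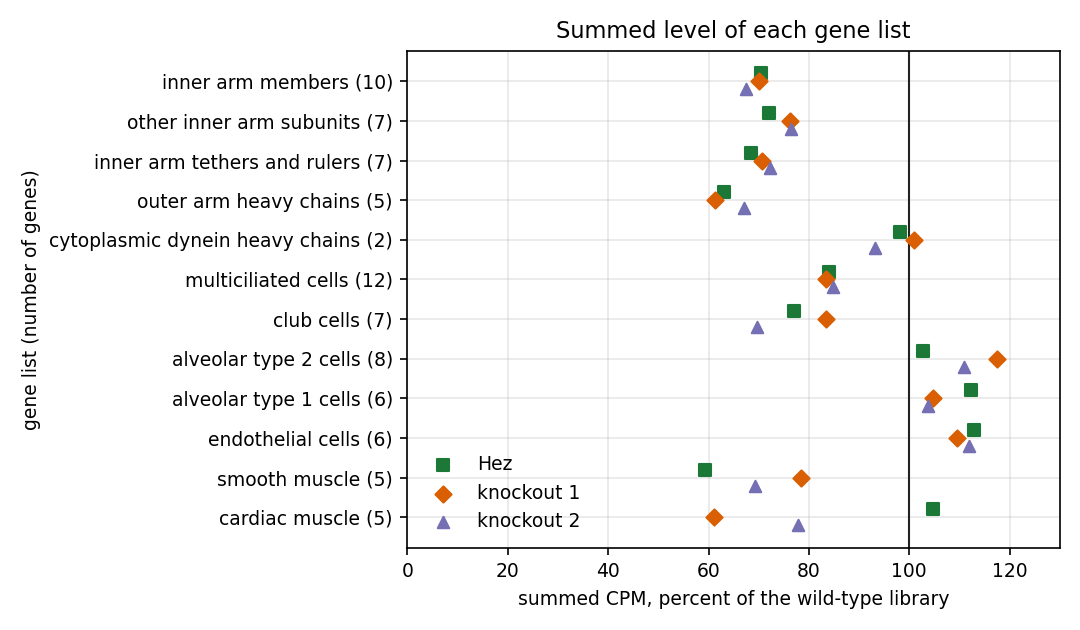
Summed CPM of each gene list in the Hez and 2 knockout libraries, as a percentage of the wild-type library (line at 100), with the number of genes in parentheses. Inner arm genes lie between 67.4% and 70.4%, club cell and smooth muscle lists are also below 100%, and alveolar and endothelial lists are above it.

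The genes whose pattern over the 4 libraries was most like that of the inner arm genes were sought among 12075 genes with a mean of at least 5 CPM. Likeness was the root mean square distance between mean-centred log2 CPM values and the median profile of the 10 members, which was 0.39 in wild type, -0.12 in Hez, and -0.09 and -0.15 in the knockout libraries. The nearest were Myb (distance 0.0137), Casc1 (0.0167), Pclo (0.0197), Traf3ip1 (0.0228) and Ulk4 (0.0233). Casc1 is an inner arm intermediate chain, and Myb encodes a transcription factor known from early multiciliated cell differentiation. Among the members, Dnah10 lay nearest to the median profile (0.0114) and Dnah7b farthest (0.208). With 4 libraries, 202 genes lay within a distance of 0.1, so likeness by this measure is not rare.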

How the data were processed

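For 4 lung libraries, the deposited table lists a whole-number read count for each gene and library, per the file headers, and deposited FPKM values that equal the count divided by library total and gene length for all 66024 values above 0 (relative tolerance 1e-06). Per the submitters' processing notes, reads were placed on GRCm39; no source used here names the aligner, counter, annotation or strand setting. The members and gene lists were chosen with earlier results of these data known. Counts were filtered with filterByExpr (minimum count 10), scaled by TMM (factors 0.993 to 1.006) and tested with edgeR 4.0.16 in R 4.3.3 (quasi-likelihood, two-sided, Benjamini-Hochberg over all genes, threshold 0.05). The fit had 3 groups and 1 residual degree of freedom (7.02 prior), or 2 groups and 2 (5.72 prior), so standard errors (fold over the root of F) draw largely on other genes, lone libraries are assumed to vary like the knockout pair, and p-values reflect only how far these samples vary, possibly for technical reasons, since no label says that they are separate litters or batches. CPM used scaled totals, and Hez against wild type log2 CPM with a prior count of 2, untested. Genes named were the members, Dnah9, the 2 of each list with the smallest p, and the 5 nearest profiles. Dnah11, Dnah8, Dnah14, Dnah17, Scgb3a2, Sec14l3, Tppp3, Nppa, Hopx, Rtkn2, Dynlt2b, Zmynd12, Cfap73, Ccdc39 and Scgb1a1 were named after their values were seen. Alternatives used DESeq2 1.42.0, limma 3.58.1 and other settings. Transcripts were aligned with MAFFT 7.526.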

Additional observations from a re-analysis of the deposited data

How the results depend on the processing

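No paired analysis was possible with 1 wild-type, 1 Hez and 2 knockout libraries, and the labels carry no replicate numbers. Over 13 alternatives, the members' log2 folds against wild type were negative in 120 of 120 values (lowest adjusted p 0.145); Dnah7a had no value with the stricter filter, and the 3 Dnah7 copies had none with the filtered FPKM settings or once summed. No adjusted p of a member passed the threshold in any of the 3 comparisons. Of all genes, the number past the threshold against wild type was 8, and it was 4 without a filter, 4 with a mean of at least 10 CPM, 14 with DESeq2's Wald test, 1 with limma on FPKM at a pseudocount of 0.5, 1 at 0.1 and 0 at 0.5 without a filter. Against Hez it was 1, then 7 with DESeq2's Wald test and 0, 0 and 0 with the FPKM settings. Against both references it was 2, then 1 with the stricter filter, 22 with DESeq2's Wald test, 1 with limma-voom and 1, 1 and 0 with the FPKM settings; leaving out 1 library gave 1 (without wild type) to 107 (without knockout 1), with 24 without knockout 2 and 8 without Hez. The members' median log2 fold against wild type was -0.43 with FPKM and no filter. Against Hez the median stayed near 0, at 0.00605 with DESeq2's size factors, 0.00897 with library totals, 0.0122 without a filter, 0.00412 with the stricter filter, 0.00607 with DESeq2's Wald test, 0.0302, 0.0335 and 0.00525 with the FPKM settings and 0.0210 with the Dnah7 copies summed. Leaving out 1 library gave -0.0171 (without knockout 1) to 0.00618 (without wild type), and -0.0115 without knockout 2. Against both references the median ran from -0.51 without Hez to 0.00618 without wild type.

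Folds against Hez that crossed 0 were those of Dnah10 (-2.33e-05 with DESeq2's size factors, -3.48e-05 with its Wald test, and -0.0159 to 0.0184 on leaving out a library), Dnah12 (-0.0183 to 0.104), Dnah3 (-0.0371 to 0.103) and Dnah7a (-0.0131 to 0.0398), the last 3 on leaving out a knockout library. Against both references, leaving out a library gave -0.51 to 0.12 for Dnah1, -0.59 to 0.0334 for Dnah3, -0.42 to 0.0123 for Dnah7a, -0.50 to 0.000114 for Dnah10, -0.51 to 0.0427 for Dnah12 and -0.40 to 0.15 for Dnali1, positive without wild type in each case. Dync1h1 against wild type ran from -0.0910 without knockout 1 to 0.0304 without knockout 2. The ratio of members to ciliated cell markers, knockout mean over wild type, was 0.817 with 12 markers and 1.0005 without Sec14l3 and Tppp3, an alternative added after seeing the data, as were the coding-transcript lengths. The cause of these shifts was not tested. Without a knockout library, the fit with 3 groups had no residual degrees of freedom and gave values with no test. With 1 wild-type library, no exact test over these samples can go below p = 0.333.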

Other observations

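The paired half-site letters were looked up in the other promoters of the RefSeq table to see whether carrying them went with the fold in these lungs. Of 48 other genes of the expression table with the letters, 38 were tested. Of these, 23 had a negative log2 fold of knockout against wild type (background 48.9%), and the median was -0.07, beside 0.00449 for all genes. Within the inner arm genes, the 4 with the letters had a median of -0.53 and the 6 others (Dnah3, unmatched, among them) a median of -0.51. These are descriptions of 1 reference library against 2 and were not tested.

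Dnah12 carried the half-site at positions -88, -79, -1 and 16, always as its reverse complement GCAAC, without a partner at the spacing of the paired letters. Dnah1 carried it once, at -32, and Dnah2 once, at 44.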
